A study of Mus musculus with 45 samples.

Results

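Foxp3, Ctla4, Pdcd1, Cd274, Pdcd1lg2, Lag3, Tigit, Havcr2, Icos and Tnfrsf4 were followed through 4 mouse tissues. These 10 genes were taken by name from the 55367 gene symbols of the count table, and all 10 were found. They encode the transcription factor of regulatory T cells, receptors that restrain or assist T cell activation, and 2 ligands of one of these receptors.

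T cells are activated by the T cell receptor together with co-stimulatory receptors, and are held back by co-inhibitory, or checkpoint, receptors. Foxp3 specifies regulatory T cells, which suppress other T cells. CTLA-4 (Ctla4) competes with CD28 for the ligands CD80 and CD86, and PD-1 (Pdcd1) is engaged by PD-L1 (Cd274) and PD-L2 (Pdcd1lg2), which can be carried by tumor, myeloid and stromal cells. LAG-3 (Lag3) binds MHC class II, TIGIT (Tigit) binds CD155, and TIM-3 (Havcr2) is found on T cells and also on macrophages and dendritic cells. ICOS (Icos) and OX40 (Tnfrsf4) are co-stimulatory receptors that activated and regulatory T cells carry. Interferon gamma is a known inducer of PD-L1.

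The mice were female BALB/c, 7 to 8 weeks old when a porous polycaprolactone scaffold was implanted under the skin. The scaffold stayed in place for 2 weeks before 67NR, 4T07 or 4T1 cells were inoculated into a mammary fat pad, and tissues were taken on day 14. Healthy control mice carried the scaffold but received no tumor cells. The 3 lines are sister lines from a single spontaneous mammary tumor, 67NR being nonmetastatic, 4T07 invasive without forming metastases, and 4T1 metastatic. Scaffolds, lungs and spleens of the 4 kinds of mice and the primary tumors of the 3 lines made 15 groups of 3 libraries, 45 in all. Each line is a single cell population, and libraries of different tissues were not linked to the same mouse by the labels.

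Library totals ran from 3491888 to 8175380 counts. Levels are given as CPM, counts per 1e6 counts of the library. Cd274 (3043 counts over the 45 libraries), Havcr2 (1965), Icos (1119), Tnfrsf4 (762) and Pdcd1lg2 (617) had counts in every library. Ctla4 (294 counts), Pdcd1 (218) and Foxp3 (171) were at 0 in 4, 6 and 7 libraries. Lag3 (57 counts, 21 libraries at 0) and Tigit (11 counts, 37 libraries at 0) were too sparse for most comparisons. The 3′ end of Foxp3 is overlapped by Ccdc22 and that of Tigit by Zbtb20, each on the opposite strand, and the strand setting of the counting is not given in the sources used here, so reads of these 2 pairs may not be separated.

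Marker genes of cell types set the tissues apart as their labels say, with summed lung epithelium markers of 5693 to 37121 CPM in the 12 lungs and at most 419 CPM in the other 33 libraries. All 10 T cell markers had counts in every group. The 3 lungs of 4T07 mice stood apart from the other 9, with lung epithelium markers at 5693 to 14287 CPM against 28467 to 37121 CPM, and B cell markers at 409 to 544 CPM against 108 to 181 CPM. Among the scaffolds, 4T07 scaffold 1 stood apart in erythroid markers (11244 CPM, against 667 to 4341 CPM in the other 11). It was also the highest in neutrophil (8633 CPM, against 266 to 3072 CPM) and B cell markers (138 CPM, against 11.3 to 66.9 CPM). Its T cell markers were the highest too, at 68.9 CPM against 26.0 to 50.7 CPM. In these tissue extracts a lower number of T cells and less RNA per T cell cannot be told apart.

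**Figure D1:**
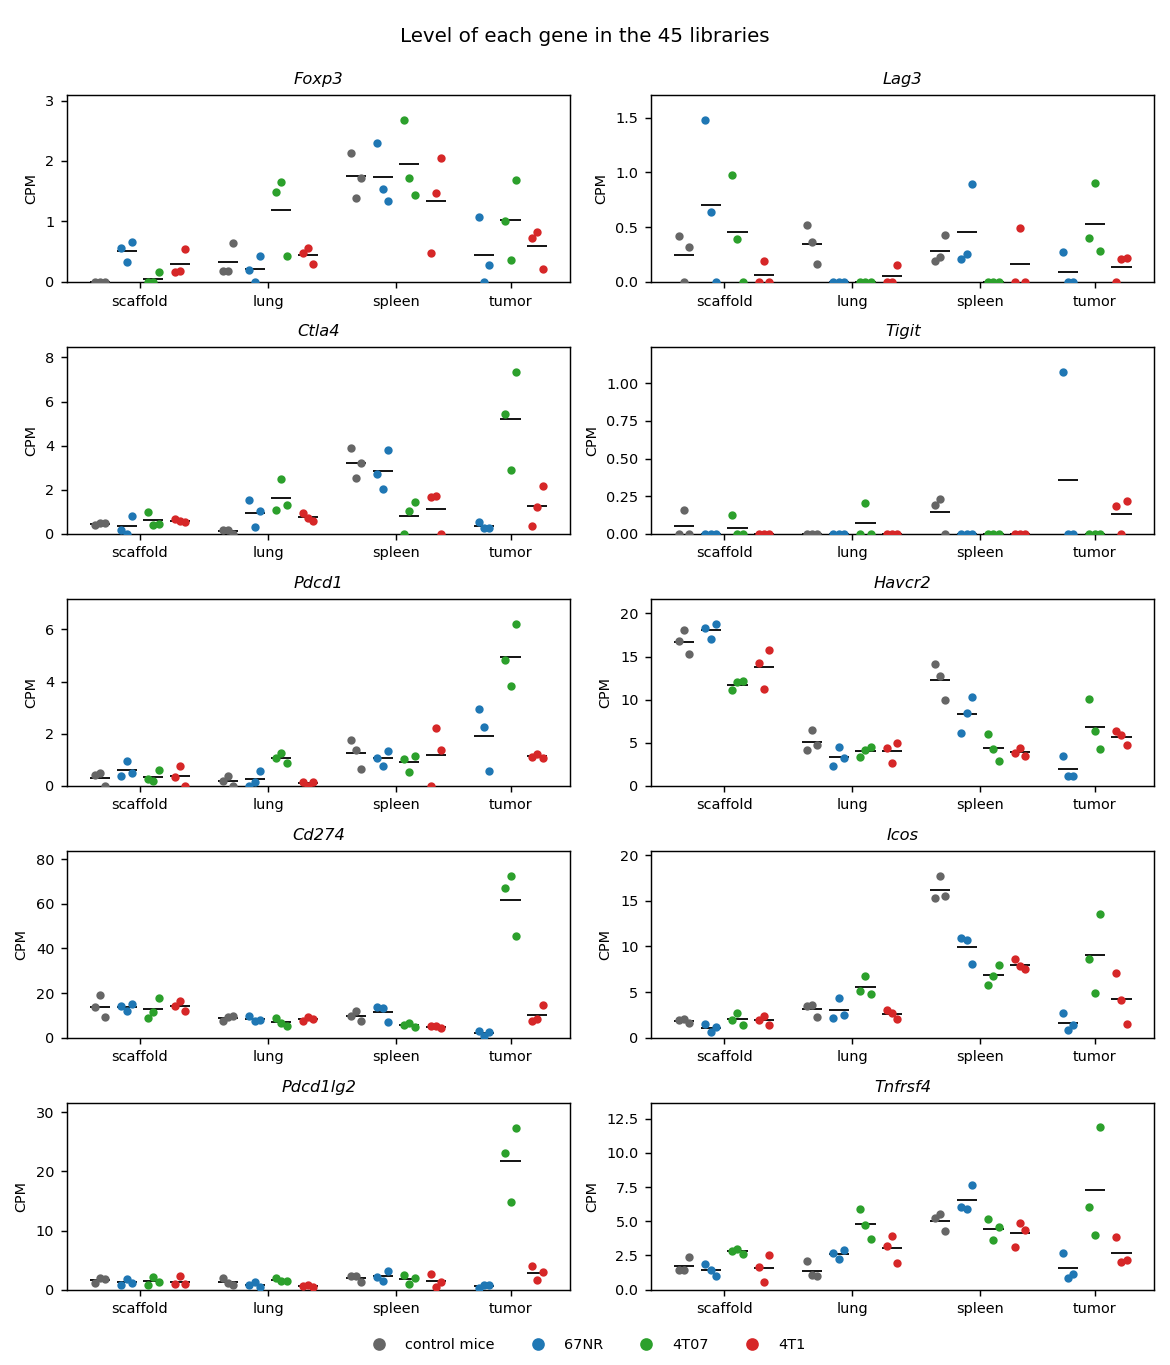
Level of each gene (CPM, linear axes that start at 0) in the 45 libraries. Points are libraries, coloured by mouse group, and bars are means of 3. Cd274 and Pdcd1lg2 stand highest in the 3 4T07 tumors, Icos in the 3 control spleens and Havcr2 in scaffolds.

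The 2 ligands of PD-1 gave the largest differences between the tumors. Both genes lie side by side on mouse chromosome 19. Their sequences upstream of the transcription start are shown because the 2 genes were high in the same tumors. The windows are the 250 bases before the start on the plus strand of GRCm38.p6 (RefSeq), chr19:29367188-29367437 for Cd274 and chr19:29410669-29410918 for Pdcd1lg2, and capitals mark a GC box.
Cd274: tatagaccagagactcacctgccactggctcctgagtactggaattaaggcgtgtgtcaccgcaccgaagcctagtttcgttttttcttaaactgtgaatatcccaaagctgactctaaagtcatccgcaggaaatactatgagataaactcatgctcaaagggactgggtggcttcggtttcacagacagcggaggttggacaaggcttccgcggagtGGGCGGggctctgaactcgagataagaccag
Pdcd1lg2: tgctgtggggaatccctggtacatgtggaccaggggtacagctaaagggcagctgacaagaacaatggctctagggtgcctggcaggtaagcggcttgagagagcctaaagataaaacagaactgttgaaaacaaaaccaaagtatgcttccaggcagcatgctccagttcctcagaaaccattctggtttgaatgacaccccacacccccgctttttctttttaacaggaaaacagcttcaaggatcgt
The motifs searched on both strands were the interferon gamma element GAS (TTCNNNGAA), the core of the interferon element ISRE (GAAA, any 2 bases, then GAAA), the GC box (GGGCGG) and the TATA box (TATAAA). They occur in 7.02%, 2.98%, 32.7% and 12.4% of 32851 such windows. The Cd274 window holds 1 GC box, 31 bases before the start, and none of the other 3 letter patterns. None of the 4 is in the Pdcd1lg2 window. Only exact letters within these 250 bases were searched, so the result does not show that either gene lacks an interferon element.

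Cd274 was at 3.23, 0.56 and 2.54 CPM in the 67NR tumors, at 67.2, 72.6 and 45.4 CPM in the 4T07 tumors and at 7.31, 8.40 and 14.5 CPM in the 4T1 tumors. The 3 groups did not overlap, and the 4T07 tumors were far above both others. Pdcd1lg2 had the same order, with 0.27, 0.84 and 0.85 CPM in 67NR, 23.1, 14.9 and 27.4 CPM in 4T07 and 4.02, 1.64 and 3.02 CPM in 4T1 tumors. Differences were tested with edgeR's quasi-likelihood test and Benjamini-Hochberg adjustment over all genes, and a gene was called in tumors at an adjusted p under 0.05 with a fold change over 2. In 4T07 against 67NR tumors, 6 of the 9 tested genes were called higher and 0 lower, where 17.1% of all genes tested were called higher. Cd274 was 24.4-fold higher (log2 fold change 4.61 ± 0.39 SE, edgeR adjusted p = 4.33e-07) and Pdcd1lg2 was 27.2-fold higher (4.76 ± 0.48, edgeR adjusted p = 1.95e-06). The 67NR tumors held only 7 Pdcd1lg2 counts in all. Their mean was 0.65 CPM, where 3 counts in a library come to 0.83 CPM on average. In 4T1 against 67NR tumors, 3 of 9 were called higher, where 11.6% of all genes were. Cd274 was 4.10-fold higher (log2 fold change 2.04 ± 0.42 SE, edgeR adjusted p = 0.00175) and Pdcd1lg2 was 3.82-fold higher (1.93 ± 0.57, edgeR adjusted p = 0.0170). The Pdcd1lg2 call was lost without 67NR tumor 1 (edgeR adjusted p = 0.0688) or 4T1 tumor 1 (0.0796). Against 4T07 tumors, 4 of 9 genes were called lower in 4T1 tumors and 0 higher, where 4.79% of all genes were called lower. Cd274 fell by 2.57 on the log2 scale (SE 0.31, edgeR adjusted p = 5.82e-05) and Pdcd1lg2 fell by 2.83 (SE 0.36, edgeR adjusted p = 8.37e-05).

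Of 12 genes of the interferon gamma axis, 6 were called higher and 0 lower in 4T07 against 67NR tumors. The share of all genes called higher was 17.1%. The median log2 fold change was 1.32, against 0.16 over all genes tested. Irf1, a transcription factor of the interferon response, was at 891 ± 134 CPM (SD, n = 3) in 4T07 and 143 ± 25.4 CPM in 67NR tumors, and the chemokine Cxcl9 at 229 ± 41.9 CPM and 36.8 ± 5.55 CPM. Their log2 fold changes were 2.39 and 2.38. In 4T1 against 4T07 tumors, 5 of the 12 were called lower and 1 higher. Of all 20508 genes tested, 982 (4.79%) were called lower and 784 higher there. The median of the list was -0.83, against -0.05 over all genes. Ifng, which encodes interferon gamma itself, fell by 3.25 on the log2 scale (SE 0.53, edgeR adjusted p = 7.14e-04) and Cxcl9 by 2.31. Against 67NR tumors, 4 of the 12 were called higher and 2 lower in 4T1 tumors. Of all 20508 genes, 2383 (11.6%) were called higher and 1861 lower there. The called genes of the list were led by Jak2 (log2 fold change 2.00) and Socs1, an inhibitor of the pathway, which fell by 1.56. The part of these interferon genes in the levels of Cd274 and Pdcd1lg2 was not tested.

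**Figure D2:**
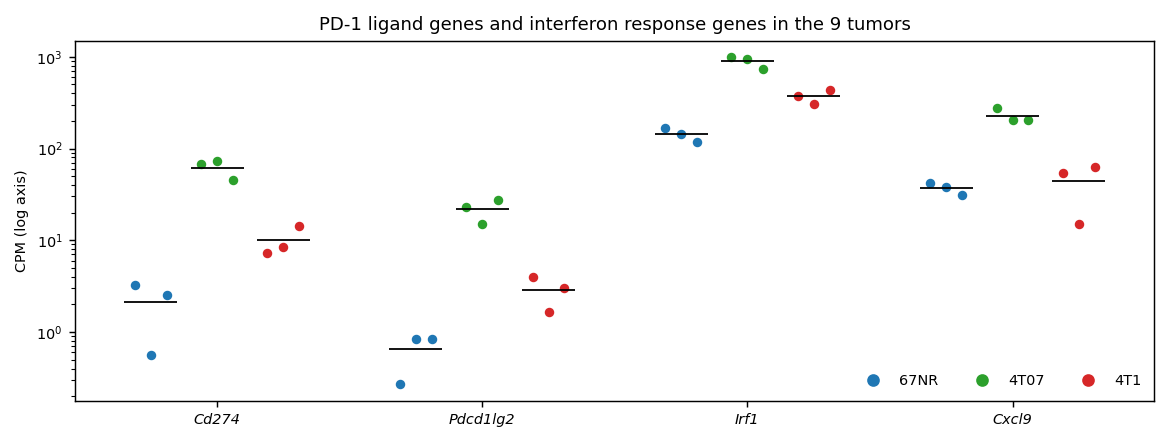
Cd274, Pdcd1lg2 and 2 interferon response genes (CPM, log axis) in the 9 primary tumors. Points are tumors, coloured by line, and bars are means of 3. In all 4 genes the 3 4T07 tumors lie above the 3 67NR and the 3 4T1 tumors.

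Ctla4, the receptor gene with the largest called difference between tumors, was at 0.54, 0.28 and 0.28 CPM in 67NR, 5.42, 2.90 and 7.34 CPM in 4T07 and 0.37, 1.23 and 2.16 CPM in 4T1 tumors. The 4T07 tumors lay above all others. It was 11.0-fold higher in 4T07 than in 67NR tumors (log2 fold change 3.47 ± 0.70 SE, edgeR adjusted p = 0.00108), where the 67NR tumors held 4 counts in all. In 4T1 against 4T07 tumors it fell by 1.99 on the log2 scale (edgeR adjusted p = 0.0208), a call that was lost without 4T07 tumor 1, 4T07 tumor 3, 4T1 tumor 1 or 4T1 tumor 2 (edgeR adjusted p of 0.0630 to 0.0966). Between 4T1 and 67NR tumors the log2 difference was 1.47 ± 0.83 SE and was not called (edgeR adjusted p = 0.193).

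Pdcd1, the receptor for both ligands, was at 2.96, 2.24 and 0.56 CPM in 67NR, 4.82, 3.81 and 6.21 CPM in 4T07 and 1.10, 1.23 and 1.08 CPM in 4T1 tumors. Every 4T07 tumor was above every tumor of the other lines. It fell by 2.03 on the log2 scale in 4T1 against 4T07 tumors (SE 0.48, edgeR adjusted p = 0.0103). Against 67NR tumors it was not called in 4T07 (log2 difference 1.09 ± 0.47 SE, edgeR adjusted p = 0.0761), although it was without 67NR tumor 1 (0.0384). In 4T1 tumors the log2 difference from 67NR was called only without 67NR tumor 3 (-1.40, edgeR adjusted p = 0.0491).

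The co-stimulatory receptors Icos and Tnfrsf4 were higher in 4T07 than in 67NR tumors. For Icos, the 67NR tumors were at 2.69, 0.84 and 1.41 CPM, the 4T07 tumors at 8.63, 4.90 and 13.5 CPM and the 4T1 tumors at 7.13, 4.10 and 1.51 CPM. The 4T1 tumors overlapped both other groups. Between 4T07 and 67NR the log2 fold change was 2.17 ± 0.57 SE (edgeR adjusted p = 0.00691). Tnfrsf4 was at 2.69, 0.84 and 1.13 CPM, 6.02, 3.99 and 11.9 CPM, and 3.84, 2.05 and 2.16 CPM in the 3 lines in the same order. It was called in 4T07 against 67NR tumors (log2 fold change 1.93 ± 0.53 SE, edgeR adjusted p = 0.00840). Its log2 difference of -1.34 ± 0.46 between 4T1 and 4T07 tumors was not called (edgeR adjusted p = 0.0653), but was without 67NR tumor 1 (0.0417) or 4T07 tumor 2 (0.0337).

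Havcr2 was at 3.49, 1.12 and 1.13 CPM in 67NR, 10.0, 6.35 and 4.23 CPM in 4T07 and 6.40, 5.94 and 4.75 CPM in 4T1 tumors. Both other lines lay above the 67NR tumors and overlapped each other. The log2 fold changes against 67NR were 1.59 ± 0.45 SE in 4T07 (edgeR adjusted p = 0.0108) and 1.36 ± 0.46 in 4T1 (edgeR adjusted p = 0.0327). The first call was lost without 67NR tumor 2 (0.0506), 67NR tumor 3 (0.0557) or 4T07 tumor 1 (0.0680). The second was lost without 67NR tumor 2 (0.124), 67NR tumor 3 (0.128), 4T1 tumor 1 (0.103) or 4T1 tumor 2 (0.0728).

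Foxp3 was not called between tumors. It was at 1.08, 0 and 0.28 CPM in 67NR, 1.00, 0.36 and 1.69 CPM in 4T07 and 0.73, 0.82 and 0.22 CPM in 4T1 tumors, and the 3 groups overlapped. Its log2 difference between 4T07 and 67NR tumors was 0.80 ± 0.93 SE, on 13 and 5 counts. Lag3 had 1 count in 67NR tumors, 8 in 4T07 and 2 in 4T1, and Tigit had 4, 0 and 2 counts in the same order, with all 4 Tigit counts of the 67NR tumors in tumor 1.

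**Figure D3:**
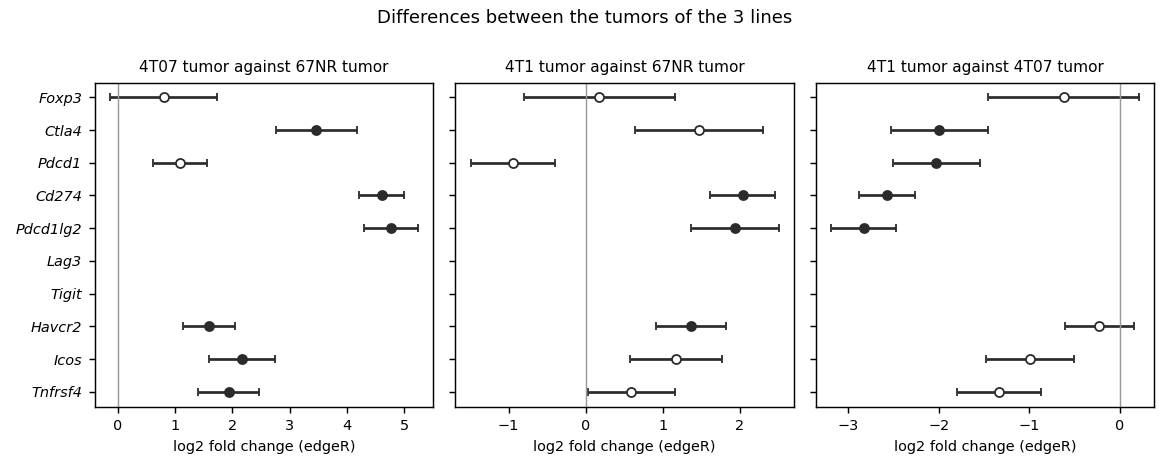
Log2 fold changes between tumors of the 3 lines, with bars of 1 SE, from edgeR. Filled points passed an adjusted p under 0.05 with a fold over 2, and genes with 10 counts or fewer over the pair of groups are left out. The 2 ligand genes lie furthest from 0 in 4T07 against 67NR and in 4T1 against 4T07 tumors.

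T cell markers were higher together with Ctla4, Icos and Tnfrsf4 in 4T07 than in 67NR tumors. In 4T1 against 67NR tumors these receptor genes were not called. Over the 10 T cell markers, 7 were called higher in 4T07 and 4 in 4T1 against 67NR tumors, and 0 in 4T1 against 4T07 tumors. Their summed levels were 31.9 to 72.8 CPM in 67NR, 85.8 to 244 CPM in 4T07 and 46.6 to 189 CPM in 4T1 tumors. Of 11 genes of the T cell receptor complex and lineage, 8 were called higher in 4T07 against 67NR tumors (median log2 fold change 1.53), led by Cd5 (2.78), Cd3g (2.52) and Cd3e (2.50). All 8 neutrophil markers were also called higher in that comparison, with sums of 18.9 to 373 CPM in 67NR and 1023 to 5250 CPM in 4T07 tumors. Fibroblast markers (5 of 5 called higher in 4T07 against 67NR tumors) summed to 884 to 1109 CPM in 67NR, 4733 to 7037 CPM in 4T07 and 5658 to 8810 CPM in 4T1 tumors. Epithelial markers (4 of 5) summed to 16.7 to 29.1, 152 to 216 and 982 to 1095 CPM in the same order. They also summed to 579 to 655 CPM in lungs of control mice, which received no tumor cells, so they do not measure the share of tumor cells. Dendritic cell markers (2 of 7) summed to 31.1 to 46.5, 68.9 to 89.1 and 45.98 to 72.4 CPM in 67NR, 4T07 and 4T1 tumors. B cell (5 of 6) and erythroid (4 of 5) markers were called higher in 4T07 tumors as well. Of all genes tested, 17.1% were called higher in that comparison. Other lists were not higher. Macrophage markers summed to 2462.5 to 2835 CPM in 67NR, 2356 to 3056.5 CPM in 4T07 and 1909 to 2286 CPM in 4T1 tumors. NK cell markers summed to 25.4 to 39.2, 22.1 to 26.8 and 5.61 to 11.9 CPM in the same order. Mast cell markers summed to 32.2 to 39.0, 25.4 to 31.9 and 15.5 to 27.1 CPM. The part of these cell type markers in the results above was not tested.

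Counts of the T cell genes were then set against the summed counts of Cd3d, Cd3e and Cd3g, the CD3 subunits, of the same library. The 67NR tumors held only 31, 13 and 16 CD3 counts, against 94 to 159 in 4T07 and 37 to 172 in 4T1 tumors. Per 100 CD3 counts, the 67NR tumors had 32.3, 23.1 and 31.2 Icos counts, the 4T07 tumors 36.8, 28.7 and 30.2 and the 4T1 tumors 31.7, 11.6 and 18.9, and the groups overlapped. Tnfrsf4 overlapped likewise, with means of 26.8, 25.2 and 16.6 in the 3 lines. Ctla4 was at 6.45, 7.69 and 6.25 in 67NR and 23.1, 17.0 and 16.4 in 4T07 tumors, which did not overlap, and spread from 1.63 to 27.0 over the 4T1 tumors. The mean of Pdcd1 on this scale was 36.5 for 67NR, 18.9 for 4T07 and 7.29 for 4T1 tumors, and the 67NR tumors ranged from 12.5 to 61.5. Differences among all groups of a tissue were tested by exact permutation of the F ratio of log2 values (0.5 count added), which has no direction. Over 7 genes in 4 tissues, 2 differences passed an adjusted p under 0.10, both in spleens. In tumors the lowest was that of Pdcd1 (exact permutation test over the 9 tumors, p = 0.0321, adjusted p = 0.129), and Ctla4 had p = 0.282 (adjusted p = 0.440, exact permutation). Without 4T1 tumor 3, which held 37 CD3 counts, Ctla4, Pdcd1, Tigit and Tnfrsf4 passed in tumors. With Cd3e alone as the denominator Foxp3, Pdcd1, Tigit, Icos and Tnfrsf4 did, each highest in 67NR tumors. Cd3e had only 13, 2 and 2 counts in the 67NR tumors, against 34 to 57 in 4T07 and 14 to 67 in 4T1 tumors. Tigit was at 0 counts in most tumors, where only the denominator varies. Its passes therefore cannot tell a Tigit difference from a difference in CD3 counts.

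**Figure D4:**
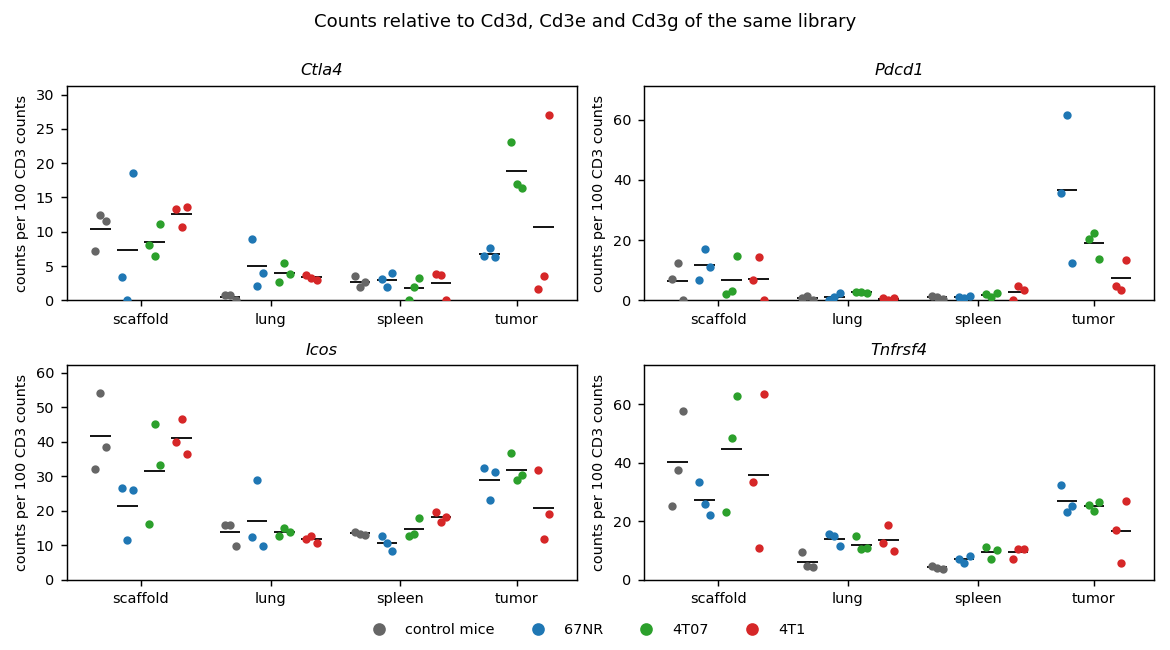
Counts of 4 receptor genes per 100 counts of Cd3d, Cd3e and Cd3g in the same library (linear axes from 0). Points are libraries, coloured by mouse group, and bars are means of 3. The 9 spleens of tumor-bearing mice lie above the 3 control spleens in Tnfrsf4. The denominator was 553 to 585 CD3 counts in control spleens, 156 to 428 in spleens of tumor-bearing mice and 13 to 31 in 67NR tumors.

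Havcr2 was lower in spleens of 4T07 and 4T1 mice than in control spleens, and Icos and Ctla4 were lower in those of 4T07 mice. In scaffolds, lungs and spleens a gene was called at an adjusted p under 0.10 with a fold over 2. Over 6 comparisons of spleens and 9 genes (Tigit was too low to be tested), 5 differences were called lower and 0 higher. In 4T07 against control spleens, 3 of 9 genes were called lower, where 10.3% of all genes were. Icos was at 15.3, 17.8 and 15.5 CPM in control, 10.9, 10.7 and 8.07 CPM in 67NR, 5.76, 6.73 and 8.02 CPM in 4T07 and 8.63, 7.84 and 7.54 CPM in 4T1 spleens. The control spleens were above all others, and 67NR lay above 4T07. Icos fell by 1.08 on the log2 scale in 4T07 spleens (SE 0.22, edgeR adjusted p = 0.00197), and without 4T07 spleen 1 the fall of 0.94 was under 2-fold. In 4T1 and 67NR spleens it passed the adjusted p but not the fold, at -0.76 (edgeR adjusted p = 0.0166) and -0.80 (0.0531). In 67NR against control spleens edgeR called 0 of 9 genes, with 2 at an unadjusted p under 0.05, where 2.26% of all genes were called.

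Havcr2 was at 14.2, 12.7 and 9.92 CPM in control, 6.07, 8.43 and 10.3 CPM in 67NR, 5.97, 4.31 and 2.86 CPM in 4T07 and 3.84, 4.41 and 3.43 CPM in 4T1 spleens. The 4T07 and 4T1 spleens lay below the control spleens with no overlap. It fell by 1.29 on the log2 scale in 4T07 (SE 0.28, edgeR adjusted p = 0.00289) and by 1.40 in 4T1 spleens (SE 0.29, edgeR adjusted p = 0.00176), the single called gene of 9 in 4T1 against control spleens, where 10.0% of all genes were called lower. Ctla4 was at 3.88, 2.54 and 3.23 CPM in control, 2.72, 2.04 and 3.81 CPM in 67NR, 0, 1.04 and 1.43 CPM in 4T07 and 1.68, 1.71 and 0 CPM in 4T1 spleens. It fell by 1.83 on the log2 scale in 4T07 spleens (SE 0.71, edgeR adjusted p = 0.0688), which was lost without control spleen 1 (0.139), 4T07 spleen 1 (0.205) or 4T07 spleen 2 (0.105).

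The regulatory T cell gene Foxp3 showed no called difference in spleens. It was at 2.14, 1.38 and 1.72 CPM in control, 2.30, 1.53 and 1.35 CPM in 67NR, 2.68, 1.73 and 1.43 CPM in 4T07 and 0.48, 1.47 and 2.06 CPM in 4T1 spleens. These are the 4 highest group means of Foxp3 in the series, and the groups overlapped. Tnfrsf4 was at 4.31 to 5.54 CPM in control, 5.88 to 7.62 CPM in 67NR, 3.62 to 5.15 CPM in 4T07 and 3.12 to 4.90 CPM in 4T1 spleens, with no call. Cd274 passed the adjusted p but not the fold in 4T1 spleens, at -0.73 against control (edgeR adjusted p = 0.0779) and -0.87 against 67NR spleens (0.0368). In 4T1 spleens edgeR called 0 of 9 genes against 67NR, with 2 at an unadjusted p under 0.05, and 0 against 4T07 spleens, with 0 at that p, where 20.7% and 2.33% of all genes were called. Lag3 had 6 counts in 67NR and 0 in 4T07 spleens (edgeR adjusted p = 0.0936, where 8.20% of all genes were called lower), fewer than 3 counts per library on average, so that no fold is given. That call was lost without control spleen 1 or 2, 67NR spleen 2, or any of the 3 4T07 spleens (0.102 to 0.189), and with no filter on counts (0.140). DESeq2 gave Lag3 no adjusted p in this comparison and did not call it.

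T cell markers of the spleens moved in the same direction. Of the 10 T cell markers, 8 were called lower in 4T07 and 5 in 4T1 against control spleens, and their sums were 628 to 783 CPM in control, 490 to 570 CPM in 67NR, 258 to 282 CPM in 4T07 and 250 to 341 CPM in 4T1 spleens. All 8 neutrophil markers were called higher in both, with sums of 24947 to 30566 CPM in 4T07, 12478 to 32736 CPM in 4T1 and 971 to 1714 CPM in control spleens. Dendritic cell markers summed to 239 to 262 CPM in control, 99.1 to 133 CPM in 4T07 and 113 to 148 CPM in 4T1 spleens, and macrophage markers to 1705 to 2251, 1201 to 1324 and 836 to 1173 CPM. B cell markers summed to 1325 to 1768, 472 to 561 and 361 to 609 CPM and NK cell markers to 41.8 to 64.1, 23.5 to 27.0 and 13.9 to 26.4 CPM in the same order. In all 4 of these lists the spleens of both lines lay below the control spleens. In 4T07 spleens, 4 of 7 dendritic cell, 0 of 7 macrophage, 3 of 6 B cell and 2 of 3 tested NK cell markers were called lower. The part of these cells in the falls of Icos, Havcr2 and Ctla4 was not tested. With library totals in place of TMM factors the median of all genes moved by -0.17 in 4T07 and -0.26 in 4T1 against control spleens, and 11 in place of 5 differences were called lower.

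Per 100 CD3 counts, Icos was not lower in 4T07 and 4T1 spleens. It was at 13.9, 13.2 and 13.0 in control, 12.6, 10.4 and 8.41 in 67NR, 12.5, 13.1 and 17.9 in 4T07 and 19.5, 16.7 and 18.0 in 4T1 spleens (exact permutation test over the 12 spleens, p = 0.00591, adjusted p = 0.0827). The 4T1 spleens were above the control and 67NR spleens. Tnfrsf4 was at 4.74, 4.10 and 3.62 in control, 7.00, 5.72 and 7.94 in 67NR, 11.2, 7.05 and 10.3 in 4T07 and 7.03, 10.4 and 10.4 in 4T1 spleens (exact permutation test, p = 0.00448, adjusted p = 0.0827). Every spleen of a tumor-bearing mouse was above every control spleen. CD3 counts were 553 to 585 in control, 402 to 428 in 67NR, 156 to 298 in 4T07 and 183 to 192 in 4T1 spleens. Tnfrsf4 had 71, 86, 62 and 52 counts in all in these groups. The ratio cannot tell more counts of a gene from fewer CD3 counts. The Icos and Tnfrsf4 results lost an adjusted p under 0.10 in most fits that left out a spleen, as given with the alternatives.

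Lungs held few counts of the T cell genes, and the highest levels of Ctla4, Foxp3, Pdcd1, Icos and Tnfrsf4 were in 4T07 mice. Over 6 comparisons, 12 differences were called higher and 3 lower. In 4T07 against control lungs, 4 of 8 tested genes were called higher and 0 lower, where 15.3% of all genes were called higher. Tnfrsf4 was at 2.09, 1.08 and 0.97 CPM in control, 2.68, 2.27 and 2.89 CPM in 67NR, 5.93, 4.75 and 3.69 CPM in 4T07 and 3.22, 3.95 and 1.95 CPM in 4T1 lungs. Control and 4T07 lungs did not overlap, and Tnfrsf4 was 3.59-fold higher in 4T07 (log2 fold change 1.84 ± 0.38 SE, edgeR adjusted p = 4.30e-04). Ctla4 was at 0.17, 0.18 and 0 CPM in control, 1.53, 0.32 and 1.01 CPM in 67NR, 1.06, 2.48 and 1.30 CPM in 4T07 and 0.97, 0.71 and 0.60 CPM in 4T1 lungs. All 9 lungs of tumor-bearing mice were above the 3 control lungs. The 4T07 and control lungs held 23 and 2 counts, a CPM ratio of 14.2 (95% counting interval 3.50 to 124, edgeR adjusted p = 8.57e-04). Pdcd1 was at 0.17, 0.36 and 0 CPM in control, 0, 0.16 and 0.58 CPM in 67NR, 1.06, 1.24 and 0.87 CPM in 4T07 and 0.16, 0 and 0.15 CPM in 4T1 lungs. The 4T07 lungs stood above all others, with 15 counts against 3 in control lungs, a ratio of 6.16 (1.74 to 33.2, edgeR adjusted p = 0.0240). Such intervals cover counting error only.

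Foxp3 was at 0.17, 0.18 and 0.65 CPM in control, 0.19, 0 and 0.43 CPM in 67NR, 1.48, 1.65 and 0.43 CPM in 4T07 and 0.48, 0.56 and 0.30 CPM in 4T1 lungs. Of the 3 4T07 lungs, 2 were above all other lungs, and 1 overlapped them. The log2 fold change in 4T07 was 1.81 ± 0.74 SE against control (edgeR adjusted p = 0.0526) and 2.51 ± 0.79 against 67NR lungs (0.0133). The first call was lost without control lung 1 (0.142), control lung 2 (0.138), 4T07 lung 1 (0.135) or 4T07 lung 2 (0.189), and with DESeq2 (adjusted p = 0.114). Icos was at 3.49, 3.61 and 2.27 CPM in control, 2.11, 4.39 and 2.46 CPM in 67NR, 5.08, 6.81 and 4.77 CPM in 4T07 and 3.06, 2.68 and 2.10 CPM in 4T1 lungs. The 4T07 lungs were the highest, with a log2 difference of 0.90 from control lungs that passed the adjusted p (edgeR, 0.0306) but not the fold, which it passed without control lung 1, control lung 2 or 4T07 lung 3 (1.01 to 1.02).

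Against 67NR lungs, 5 of 8 genes were called higher in 4T07 lungs, where 14.4% of all genes were. Besides Foxp3 these were Icos (log2 fold change 1.05, edgeR adjusted p = 0.0125), Tnfrsf4 (1.03, 0.0172), Pdcd1 (2.05, 0.0434) and Pdcd1lg2 (1.12, 0.0847). Icos was lost, under 2-fold, without 67NR lung 1, 67NR lung 3 or 4T07 lung 2 (0.87 to 0.92), and Tnfrsf4 without 67NR lung 2 or 4T07 lung 1 (0.98 and 0.90). Pdcd1 was lost without 67NR lung 1, 67NR lung 2 or 4T07 lung 2 (edgeR adjusted p of 0.108 to 0.116), and Pdcd1lg2 without 67NR lung 1, 67NR lung 3 or any 4T07 lung (0.109 to 0.291). With DESeq2, Pdcd1 (adjusted p = 0.101) and Pdcd1lg2 (0.159) were lost. With library totals in place of TMM factors, Icos (log2 fold change 0.89) and Tnfrsf4 (0.87) were under 2-fold and Pdcd1lg2 was lost (edgeR adjusted p = 0.134), as it was with no filter on counts (0.147). In 4T1 against 4T07 lungs, 3 of 8 were called lower, where 11.9% of all genes were. Icos fell by 1.14 on the log2 scale (edgeR adjusted p = 0.00911), a fall of 0.97 without 4T07 lung 2. Pdcd1lg2 fell by 1.45 (0.0373), and no longer passed without 4T07 lung 1 or 4T1 lung 3. Pdcd1 had 2 against 15 counts, a ratio of 0.0947 (0.0105 to 0.407, edgeR adjusted p = 0.00971).

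Fewer calls were made in the lungs of the other lines. Ctla4 was called in 67NR against control lungs, the single gene of 8 where 2.52% of all genes were called higher, with 17 against 2 counts (ratio 8.11, 1.93 to 72.4, edgeR adjusted p = 0.0574). It was lost without any control lung, 67NR lung 1 or 67NR lung 3 (0.130 to 0.167). In 4T1 against control lungs, 2 of 8 were called higher, where 3.56% of all genes were, Ctla4 with 15 against 2 counts (ratio 6.56, 1.53 to 59.1, edgeR adjusted p = 0.0879) and Tnfrsf4 (log2 fold change 1.14, 0.0760). Ctla4 was lost without any control lung, 67NR lung 3, 4T1 lung 1 or 4T1 lung 2 (0.109 to 0.219), and Tnfrsf4 without control lung 2 or 3 or 4T1 lung 1 or 2 (0.179 to 0.352) and with DESeq2 (adjusted p = 0.104). DESeq2 gave Ctla4 no adjusted p for 67NR or 4T1 against control lungs, and so called it in neither. Between 4T1 and 67NR lungs 0 of 8 genes were called by edgeR, where 5.03% of all genes were, 0 had an unadjusted p under 0.05, and DESeq2 called 0.

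The ligand gene Cd274 showed no called difference between lungs. It was at 7.32 to 9.87 CPM in control, 7.31 to 9.77 CPM in 67NR, 5.21 to 8.89 CPM in 4T07 and 7.57 to 9.18 CPM in 4T1 lungs. Havcr2 likewise overlapped between the groups, from 2.30 CPM in a 67NR lung to 6.49 CPM in a control lung. Lag3 had 7 counts and Tigit 1 count over the 12 lungs and neither was tested.

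The 4T07 lungs also differed in cell type markers. Of the 10 T cell markers 4 were called higher than in control lungs, with sums of 182 to 247 CPM against 116 to 128 CPM. Lung epithelium markers fell to between 5693 and 14287 CPM from 34911 to 37028 CPM, with 4 of 5 called lower, and B cell (5 of 6), erythroid (5 of 5) and neutrophil (8 of 8) markers were called higher. In 4T1 lungs 8 of 8 neutrophil markers but 0 of 10 T cell markers were called higher, with T cell sums of 116 to 129 CPM. The part of these cells in the differences of the 4T07 lungs was not tested. Per 100 CD3 counts, Icos was at 12.7, 14.8 and 13.9 in 4T07 and 15.7, 15.7 and 9.66 in control lungs, which overlapped. Ctla4 and Tnfrsf4 were lowest in control lungs on this scale, with means of 0.525 and 6.10 (exact permutation test over the 12 lungs, adjusted p = 0.124 and 0.129). Lag3 was highest in control lungs, with a mean of 1.54 on 6 of its 7 lung counts (exact permutation test, p = 0.0178, adjusted p = 0.124).

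**Figure D5:**
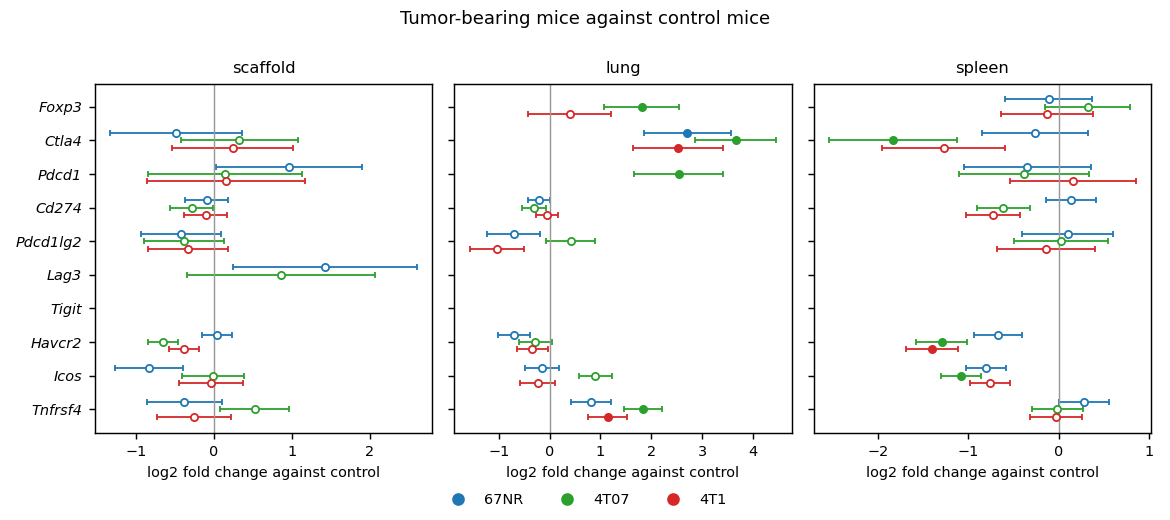
Log2 fold changes of mice with 67NR, 4T07 and 4T1 tumors against control mice in scaffold, lung and spleen, with bars of 1 SE, from edgeR. Filled points passed an adjusted p under 0.10 with a fold over 2. Genes with 10 counts or fewer over the pair of groups are left out, and control lungs held only 2 Ctla4 and 3 Pdcd1 counts. Called points lie to the right in lung, to the left in spleen, and are lacking in scaffold.

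In scaffolds, edgeR called 0 of 54 differences over 9 genes and 6 comparisons, with 7 at an unadjusted p under 0.05, and DESeq2 called 0, with 4 at an unadjusted p under 0.05. Calls over all genes in either direction were 0% for 67NR, 7.44% for 4T07 and 0.0226% for 4T1 against control scaffolds, 5.85% for 4T07 and 0.0226% for 4T1 against 67NR scaffolds, and 1.00% for 4T1 against 4T07 scaffolds. Havcr2 was at 16.8, 18.1 and 15.3 CPM in control, 18.3, 17.0 and 18.8 CPM in 67NR, 11.1, 12.0 and 12.1 CPM in 4T07 and 14.2, 11.2 and 15.8 CPM in 4T1 scaffolds. The 4T07 scaffolds lay below control and 67NR scaffolds with no overlap. The log2 differences were -0.65 (edgeR adjusted p = 0.0383) and -0.69 (0.0353), under the 2-fold limit. Macrophages and dendritic cells can carry TIM-3. Macrophage markers summed to 3021 to 3687 CPM in 4T07 and 3344 to 3514 CPM in control scaffolds, dendritic cell markers to 664 to 870 and 467 to 607 CPM, and mast cell markers to 25.8 to 34.0 and 40.7 to 55.3 CPM. The part of these cells in the Havcr2 difference was not tested. Cd274 was at 13.6, 19.0 and 9.29 CPM in control, 14.4, 11.9 and 15.2 CPM in 67NR, 9.05, 11.4 and 17.7 CPM in 4T07 and 14.0, 16.4 and 11.9 CPM in 4T1 scaffolds, and all 4 groups overlapped.

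Foxp3 had 0 counts in the 3 control scaffolds, where 3 counts in a library come to 0.526 CPM on average. The 67NR scaffolds were at 0.55, 0.32 and 0.66 CPM, the 4T07 scaffolds at 0, 0 and 0.16 CPM and the 4T1 scaffolds at 0.16, 0.19 and 0.54 CPM. These are 9, 1 and 5 counts. The 95% counting interval of the CPM ratio of 4T07 to 67NR scaffolds was 0.00228 to 0.722 (edgeR adjusted p = 0.106), and this difference was called without 4T07 scaffold 3 (0.0981) or 4T1 scaffold 2 (0.0944). Tnfrsf4 was at 2.81, 2.95 and 2.64 CPM in the 4T07 scaffolds, above the 3 control scaffolds (1.47, 1.43 and 2.36 CPM), without a call. Icos, Ctla4, Pdcd1 and Pdcd1lg2 stayed between 0 and 2.75 CPM in all 12 scaffolds.

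The change from control mice was also compared between tissues, as a difference of log2 fold changes in 1 fit of all 45 libraries with a call at an adjusted p under 0.10. In 4T07 mice it was lower in spleen than in lung for 4 of 10 genes and higher for 0, where 10.6% of all genes were called lower. These were Ctla4, Icos, Tnfrsf4 and Pdcd1. In 4T1 mice Ctla4 was the single gene with a lower change in spleen than in lung (1 of 10, where 7.95% of all genes were), and Havcr2 the single one with a lower change in spleen than in scaffold (1 of 10, where 7.37% of all genes were). The values are given with the results for a closer look.

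Among the healthy controls, Foxp3, Ctla4, Pdcd1, Icos and Tnfrsf4 had their highest means in spleens. In control spleen against control lung, 6 of 10 genes were called higher and 0 lower at an adjusted p under 0.05, where 14.7% of all genes were called higher. The log2 fold changes were 2.42 ± 0.34 SE for Icos, 1.89 ± 0.41 for Tnfrsf4, 2.33 ± 0.69 for Foxp3 and 1.31 ± 0.28 for Havcr2. Ctla4 (46 against 2 counts) and Pdcd1 (18 against 3 counts) had ratios of 28.4 (7.44 to 242) and 7.42 (2.17 to 39.3), and the Pdcd1 call was lost without control lung 3 (edgeR adjusted p = 0.0634) or control spleen 1 (0.0566). Against control scaffolds, 4 of 10 were called higher in control spleens, where 12.5% of all genes were. Icos (log2 fold change 2.92 ± 0.37 SE), Ctla4 (2.57 ± 0.68) and Tnfrsf4 (1.30 ± 0.40) were among them, and Foxp3 was at least 3.33-fold higher against a floor of 3 counts per library. Tnfrsf4 was lost without control scaffold 2 (edgeR adjusted p = 0.0504). In control lung against control scaffold, Havcr2 was the single gene of 10 called lower, where 11.1% of all genes were (log2 fold change -1.96 ± 0.28 SE), and Foxp3, with 6 against 0 counts, the single gene called higher, where 13.0% of all genes were. The 6 Foxp3 counts lie near the floor, and the call was lost without any control scaffold or control lung 3 (0.0795 to 0.189), with DESeq2 (adjusted p = 0.0567) and with no filter on counts (0.0547).

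Each tumor was also compared with the scaffold of the same line. In 4T07, 7 of 10 genes were called higher in tumors, where 8.28% of all genes were. The log2 fold changes were 3.82 ± 0.41 SE for Pdcd1lg2, 3.49 ± 0.66 for Pdcd1, 2.74 ± 0.60 for Ctla4, 2.07 ± 0.27 for Cd274, 1.92 ± 0.37 for Icos and 1.13 ± 0.36 for Tnfrsf4. Foxp3 had 13 against 1 counts, a ratio of 18.2 (2.74 to 775). Tnfrsf4 was lost without 4T07 scaffold 3 (edgeR adjusted p = 0.0558) or 4T07 tumor 3 (0.271). In 67NR, 2 of 10 genes were called lower in tumors, where 15.7% of all genes were, Cd274 (log2 fold change -2.69 ± 0.37 SE) and Havcr2 (-3.21 ± 0.34). In 4T1, Havcr2 was called lower (-1.41 ± 0.28, 1 of 10, where 10.7% of all genes were) and Icos higher (1.02 ± 0.40, 1 of 10, where 10.3% of all genes were). The Icos call was lost without any 4T1 scaffold, 4T1 tumor 1 or 4T1 tumor 2 (edgeR adjusted p of 0.0559 to 0.570), with DESeq2 (adjusted p = 0.0574), with DESeq2 size factors in edgeR (0.0594) and in a fit of only the groups compared (0.140).

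The order of the 15 group means differed between genes. Cd274 ran from 61.7 ± 14.4 CPM (SD, n = 3) in 4T07 tumors, clear of the next group, through the 4 scaffold groups (12.7 to 14.1 CPM, overlapping) down to 2.11 ± 1.38 CPM in 67NR tumors, again clear of the group above. Pdcd1lg2 was at 21.8 ± 6.35 CPM in 4T07 tumors, clear of 4T1 tumors at 2.89 ± 1.20 CPM, below which each group overlapped the next down to 4T1 lungs. Icos was led by control spleens (16.2 ± 1.35 CPM), clear of 67NR spleens (9.90 ± 1.58 CPM), and Havcr2 by the 67NR and control scaffolds (18.0 ± 0.937 and 16.7 ± 1.39 CPM), which overlapped. Ctla4 (5.22 ± 2.22 CPM), Pdcd1 (4.95 ± 1.20 CPM) and Tnfrsf4 (7.29 ± 4.08 CPM) were highest in 4T07 tumors, of which only Pdcd1 was clear of the next group.

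Genes with the most similar pattern were named by Pearson's r among 17823 genes, as a description. Over the 45 libraries, after the mean of each tissue was taken off, Cd274 was followed most closely by Gbp7 (r = 0.919), Herc6 (0.904) and Gbp3 (0.902), and Icos by Cd2 (0.801), Lck (0.789) and Trbc2 (0.781). Tnfrsf4 was followed by Cd37 (0.832), Plcb2 (0.807) and Dleu2 (0.797). Over the 15 group means, Havcr2 was followed by Tec (0.971), Gm36486 (0.952) and Tbc1d9 (0.950), and Cd274 by Ogdhl (0.933), Gm36043 (0.897), which overlaps Cd274, and Mtss1 (0.893). The points share libraries and depth.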

How the data were processed

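RNA-seq counts of 45 mouse libraries were deposited by the authors as 1 table of raw counts per gene symbol, made from QuantSeq 3′ libraries with unique molecular identifiers. Per the labels, the processing notes name Trim Galore 0.5.0, STAR 2.6.0 and featureCounts. The genome build, annotation, strand setting and whether identifiers were collapsed are not given in the sources used here. A 3′ count does not scale with transcript length, and levels were not compared between genes. The counts of 120 repeated symbols were summed, leaving 55367 symbols.

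Genes with more than 10 counts over the libraries of a tissue were fitted with edgeR 4.0.16 (TMM, quasi-likelihood F test, Benjamini-Hochberg adjustment over all genes) in R 4.3.3, each tissue with all its groups, and all 45 libraries together for comparisons between tissues. A difference counted as called at an adjusted p under 0.05 (tumors, between tissues) or 0.10 (scaffold, lung, spleen) with a fold over 2. The SE of a log2 fold change was derived from its test, as its absolute value divided by the square root of F. A fold with 1 to 3 counts in a group was given as a ratio of CPM with an exact 95% counting interval. DESeq2 1.42.0, other scalings, other filters and fits without 1 library were alternatives, and in the 45-library fit the last kept the trended dispersion of all libraries. Scripts were tested on simulated data. The 10 genes, the related lists and the marker lists were chosen with earlier results of these data known. From a related list, at most the 3 called genes with the largest change were named per comparison, and 1 gene of these is not reported here. Replicates were separate samples of a group, and no pair held the same values. Per the study's figure legends, RNA-seq groups held 3 mice each, and the labels do not tie libraries to individual mice.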

Additional observations from a re-analysis of the deposited data

Results flagged for a closer look

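The effect of 4T07 tumors relative to control mice differed between spleen and lung for 4 genes, by an edgeR test of the difference itself. For Ctla4 the log2 fold change in spleen minus that in lung was -5.35 (SE 1.14, edgeR adjusted p = 5.34e-04), with 11 counts in 4T07 and 46 in control spleens, and 23 in 4T07 and 2 in control lungs. For Icos it was -1.87 (SE 0.49, edgeR adjusted p = 0.00488) and for Tnfrsf4 -1.75 (SE 0.56, edgeR adjusted p = 0.0236). For Pdcd1 it was -2.79 (SE 1.15, edgeR adjusted p = 0.0971). The Pdcd1 result was lost without control lung 1 or 3, control spleen 1 or 2, any 4T07 lung, or 4T07 spleen 1 or 2, and its highest edgeR adjusted p was 0.235, without control lung 3. T cell markers moved in the same opposite directions, 4 of 10 called higher in 4T07 lungs and 8 of 10 called lower in 4T07 spleens, and their part in these differences was not tested.

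In 4T1 mice the same difference between spleen and lung was found for Ctla4, -3.77 (SE 1.19, edgeR adjusted p = 0.0327), with 14 and 46 counts in 4T1 and control spleens and 15 and 2 in the lungs. Havcr2 had a lower change in spleen than in scaffold, by -1.06 (SE 0.40, edgeR adjusted p = 0.0828). It was lost without control scaffold 2 or 3, control spleen 1 or 2, 4T1 scaffold 1 or 3, or 4T1 spleen 1 or 3, with edgeR adjusted p values of 0.106 to 0.186, and with no filter on counts (0.145). Macrophage markers summed to 836 to 1173 CPM in 4T1 and 1705 to 2251 CPM in control spleens, and to 3551 to 3859 and 3344 to 3514 CPM in the scaffolds. Dendritic cell markers summed to 113 to 148 and 239 to 262 CPM in the spleens, and to 578 to 633 and 467 to 607 CPM in the scaffolds. Neutrophil markers, 8 of 8, were called higher in 4T1 spleens than in control spleens. The part of these cells in this Havcr2 result was not tested.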

How the results depend on the processing

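Of 62 calls, 38 held under all alternatives, 24 were lost without some library, 10 in some other alternative and 0 reversed. Fits that gave a gene no adjusted p were not counted as losses here. Another 26 differences were called in an alternative but not in the reported fit. Of the 245 differences called in no setting, 92 changed sign in some setting. In lungs DESeq2 gave 9 calls in place of 15, and a filter of at least 10 counts in every library, which left 3 genes, gave 2. In spleens library totals without TMM factors gave 11 calls in place of 5, adding Cd274, Ctla4, Icos and Havcr2, and the filter of 10 counts, which left 4 genes, gave 3. In tumors and in the 45-library fit that filter left none of the 10 genes and gave no value. With Cd3e alone as the denominator, 11 in place of 2 T cell scaled differences passed, and with 1 count added 2 did.

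Leaving out 1 library at a time gave 10 to 14 calls in tumors (13 with all), 0 to 1 in scaffolds, 10 to 16 in lungs (15), 2 to 6 in spleens (5, and 2 without 4T07 spleen 1), 21 to 25 between tissues (23), 4 to 7 differences of change between tissues (6) and 0 to 10 T cell scaled differences (2, and 10 without 4T1 tumor 3). The T cell scaled spleen results of both Icos and Tnfrsf4 had exact permutation adjusted p values of 0.109 to 0.137 without control spleen 1 or 2, 67NR spleen 2 or 3, 4T07 spleen 1, or 4T1 spleen 2 or 3. Tnfrsf4 alone was lost without 67NR spleen 1 or 4T07 spleen 3 (0.125 for each), and Icos alone without 4T07 spleen 2 (0.125) or 4T1 spleen 1 (0.103). More T cell scaled differences passed without control spleen 3, 67NR scaffold 3 or 4T07 scaffold 3 (5 each), and without 67NR lung 2 or 4T1 lung 3 (3 each). The cause was not tested for any of these.

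No paired analysis was possible because the labels give no replicate numbers that tie libraries of different groups or tissues to a mouse or batch. Depth limits the sparse genes. A count of 3 came to 0.37 to 0.86 CPM over the libraries, and levels of Foxp3, Pdcd1, Ctla4, Lag3 and Tigit often did not exceed it. Of the 45 libraries, 21 held more than 3 counts of Foxp3, 23 of Pdcd1, 26 of Ctla4, 5 of Lag3 and 1 of Tigit.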

Other observations

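Related genes of 4 other lists were measured beside the receptors and ligands. Of all 20508 genes tested in tumors, 3514 (17.1%) were called higher and 2423 lower in 4T07 against 67NR tumors, and 2383 (11.6%) higher and 1861 lower in 4T1 against 67NR tumors. In 4T07 against control spleens, 1745 of 21128 were called higher and 2179 (10.3%) lower, and in 4T07 against control lungs, 3357 of 21937 (15.3%) higher and 3015 lower. Among 14 tested genes of regulatory T cells other than Foxp3, 3 were called higher and 0 lower in 4T07 against 67NR tumors (median log2 fold change 0.71, against 0.16 over all genes). Nt5e, the ectonucleotidase CD73, had means over 3 tumors of 78.7 ± 35.1 CPM (± SD) in the 4T07 line, 140 ± 5.20 CPM in 4T1 and 3.04 ± 0.46 CPM in 67NR, and Il2ra, the interleukin-2 receptor alpha chain, at 14.9 ± 4.80, 5.24 ± 0.80 and 0.82 ± 0.70 CPM. Ikzf2, the transcription factor Helios, was also called in 4T07 (log2 fold change 2.06). It was at 60.8 to 87.8 CPM in 4T07, 48.8 to 68.2 CPM in 4T1 and 10.35 to 19.1 CPM in 67NR tumors, and its cell source was not tested. Nt5e is also made by other cells, tumor cells among them. In 4T07 against control spleens 2 of 14 genes of this list were called higher and 2 lower, with the median at -0.26 against -0.09 over all genes, and in 4T07 lungs 4 were called higher and 2 lower, among them Tgfb1 (log2 fold change 2.21).

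Among 12 tested ligands and partners of the checkpoint receptors, 5 were called higher and 1 lower in 4T07 against 67NR tumors, with Cd226, the activating counterpart of TIGIT, at 9.24 ± 3.88 and 2.03 ± 0.79 CPM. In 4T1 against 67NR tumors 0 of the 12 were called by edgeR. In 4T07 against control spleens 5 of 13 were called lower and 1 higher. Cd28, the activating counterpart of CTLA-4, fell by 1.55 on the log2 scale and Ceacam1, a ligand of TIM-3, was higher by 1.81. Of the other co-inhibitory and co-stimulatory genes, 6 of 15 were called higher in 4T07 against 67NR tumors, and 8 of 14 were called lower and 1 higher in 4T07 against control spleens (median log2 fold change -1.20, against -0.09 over all genes), led by Tnfsf18, Cd27 and Cd40lg. Cd276, which encodes B7-H3, was at 38.0 ± 5.13 CPM in 4T1, 17.3 ± 2.62 CPM in 4T07 and 6.07 ± 1.04 CPM in 67NR tumors. Of 12 transcription factors of T cell activation and exhaustion, 5 were called higher and 0 lower in 4T07 against 67NR tumors, led by Nr4a1, Prdm1 (log2 fold change 1.95) and Tox2 (1.62). Tbx21, the transcription factor T-bet, was at 0.72 ± 0.26 CPM in 4T1, 4.81 ± 1.74 CPM in 4T07 and 4.18 ± 3.46 CPM in 67NR tumors, called lower in 4T1 against both. These lists were not tested as sets.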
